A study of Mus musculus with 24 samples.

Results

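The Hox genes are homeodomain transcription factors that lie in 4 chromosomal clusters, HoxA on chromosome 6, HoxB on chromosome 11, HoxC on chromosome 15 and HoxD on chromosome 2 of the mouse. Members were taken by name alone, as every gene whose array name is Hoxa, Hoxb, Hoxc or Hoxd followed by a digit. This gave 38 of the 27398 gene names on the array, measured by 50 of 41174 probes. Genes with the same number in different clusters are paralogs, numbered from 1 at the anterior end of the body axis to 13 at the posterior end. In the embryo their nested expression along the head to tail axis gives the spinal cord and its ganglia their segmental identity, and many remain expressed in adult neurons and glia of the segment they marked.

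The study asked how loss of *Nfil3*, which encodes a transcriptional repressor, changes gene expression in dorsal root ganglia (DRGs) after injury of the sciatic nerve. Total RNA of L4 and L5 DRGs from adult male C57BL/6J mice was hybridised to Agilent whole mouse genome arrays. The 24 samples form 6 groups of 4: wildtype (WT) and *Nfil3* KO, each as control DRGs of the non-injured side (day 0 in the labels) and at day 2 and day 5 after the nerve was lesioned and its ends coaptated. The labels name the tissue DRG neurons, but whole ganglia were dissected, and markers of glia, fibroblasts, endothelium and macrophages were all detected. Labels do not say which samples came from the same animal, so p-values measure the spread between samples.

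The knockout and the lesion were both visible in the data. *Nfil3* lay between 8.44 and 9.01 in WT control DRGs and between 10.34 and 11.09 in lesioned WT DRGs, on the normalised log2 intensity scale used throughout. It lay between 2.82 and 6.23 in lesioned KO DRGs, and KO was below WT at day 2 and at day 5 (adjusted p = 0.00819 and 0.00259, limma) but did not pass in control DRGs (adjusted p = 0.99994). Of the control samples labelled KO, 3 lay between 2.94 and 4.37, while the library labelled KO control replicate 4 reached 7.59. One label field gives that library day 5, whereas its title and source name give day 0, so Hox results are also given without it. The injury factor *Atf3* lay between 7.25 and 9.98 in controls and between 12.94 and 14.10 after lesion. Each array carried 2 samples, and in the 4 controls hybridised beside a lesion sample *Atf3* (9.04 to 9.98) and the injury gene *Sprr1a* (8.15 to 11.68) were higher than in the 4 controls hybridised beside another control (7.25 to 7.69 and 5.48 to 6.12). Hox results were therefore also computed without those 4 controls. Among lesioned KO DRGs, *Nfil3* read 5.30 to 6.23 where the array partner was a WT sample and 2.82 to 4.14 where it was a KO sample. The KO controls did not show this order. KO control replicate 4, at 7.59, and replicate 1, at 2.94, had KO partners, and replicates 2 and 3, at 3.80 and 4.37, had WT partners. The cause was not tested.

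Of the 38 Hox genes, 29 were detected, meaning that at least 1 probe was well above background in at least 12 of the 24 samples. This compares with 64.5% of all gene names. Probes differ in brightness for reasons of sequence, so levels were not ranked between genes and detection stands in for them. Of the anterior paralogs 1 to 4, 10 of 12 were detected, the exceptions being *Hoxb1*, which was above background in no sample, and *Hoxd3*, in 5. Of paralogs 5 to 8, which are characteristic of the trunk, 10 of 11 were detected, with *Hoxc8* above background in 9 samples. All 7 genes of positions 9 and 10, a range that reaches into the lumbar region, were detected, though *Hoxd10* only just, in 12 samples. *Hoxd10* read 5.99 to 7.37 in WT control replicate 4, WT day 2 replicates 1 and 4 and KO day 2 replicates 2 and 3. In the other samples it read 3.27 to 4.66.

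Among the posterior paralogs 11 to 13, known from sacral, tail and limb patterning, 2 of 8 were detected. These were *Hoxa11*, in 19 samples, and *Hoxa13*, in 15. *Hoxc12*, *Hoxc13* and *Hoxd13* were above background in no sample, *Hoxb13* and *Hoxd12* in 3 each and *Hoxd11* in 5. The samples in which *Hoxd10* was high were also the highest for *Hoxd11*, at 5.00 to 5.59 against 2.15 to 4.22 in the others. The cause was not tested. By cluster, 11 of 11 HoxA genes were detected, 8 of 10 HoxB, 5 of 8 HoxC and 5 of 9 HoxD. In all, 23 genes were above background in every sample.

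**Figure D1:**
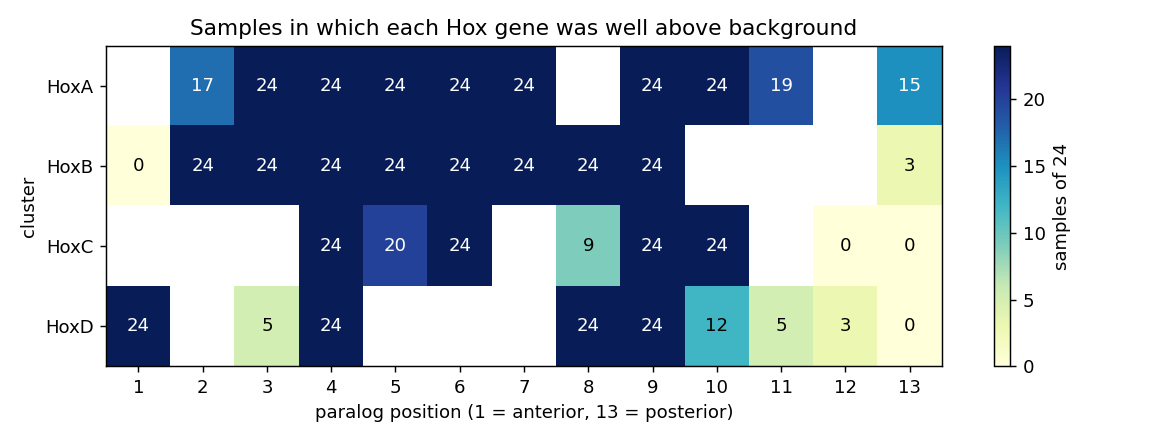
Number of the 24 samples in which the best probe of each Hox gene was well above background, by cluster (rows) and paralog position (columns); blank cells have no gene on the array or are not shown. Positions 4 to 10 are filled almost throughout, with *Hoxc8* at 9 samples and *Hoxd10* at 12, while 2 of the 8 genes at positions 11 to 13 reach 12 samples.

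The Hox genes that passed the lesion test were lower after lesion, with 1 exception, and most members did not pass. In the limma test of any difference from control at day 2 or day 5 over both genotypes, 14 of 38 genes passed an adjusted p of 0.05, against 26.2% of all genes and 38.6% of detected genes. All 14 were among the 29 detected genes. Of the 14, 13 had lower estimates at both days, a pattern that 13.8% of all genes and 20.6% of detected genes showed. *Hoxa13* was the exception. At day 2, 13 genes were lower and 1 was higher (12.7% and 9.48% of all genes). At day 5, 11 were lower and 0 higher (13% and 10.2%), with 13 at an unadjusted p below 0.05 in either direction. The median change of the 29 detected genes was -0.32 at day 2 and -0.20 at day 5 on the log2 scale, beside -0.02 and -0.03 over all detected genes. In whole ganglia, fewer cells of a type and less RNA per cell cannot be told apart.

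Counts by cluster and by position are a description, set beside the 26.2% of all genes and 38.6% of detected genes that passed, and clusters or positions were not tested against each other. By cluster, 7 of 10 HoxB genes, 5 of 11 HoxA, 1 of 8 HoxC and 1 of 9 HoxD passed. By position, 7 of 11 genes of paralogs 5 to 8 passed, 4 of 12 of paralogs 1 to 4, 2 of 7 of positions 9 and 10, and 1 of 8 of the posterior paralogs. Detected genes of paralogs 5 to 8 had a median change of -0.63 at day 2 and -0.40 at day 5, and detected HoxB genes of -0.57 and -0.38. Without the library labelled KO control replicate 4, 13 genes passed the lesion test, beside 24.4% of all genes in that fit. Without the 4 controls that shared an array with a lesion sample, 12 did, beside 17.7% of all genes.

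**Figure D2:**
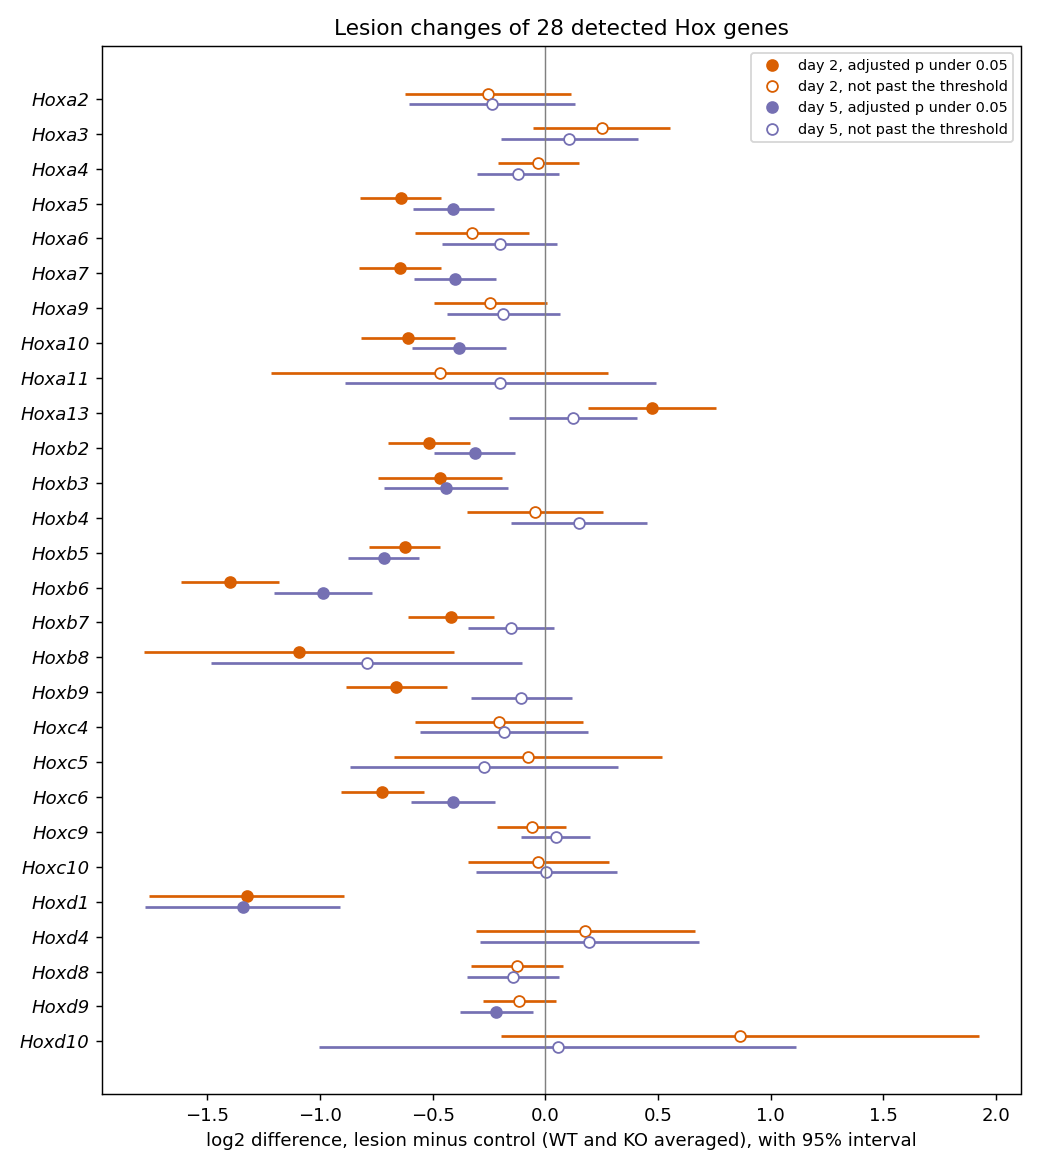
Log2 difference between lesioned and control DRGs (horizontal axis, averaged over WT and KO) with its 95% interval for 28 of the 29 detected Hox genes, ordered by cluster and position; filled points passed an adjusted p of 0.05. Filled points lie to the left of 0 with the exception of *Hoxa13* at day 2, and the estimates of *Hoxb6* at day 2 and of *Hoxd1* at both days lie farthest left.

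*Hoxb6*, a trunk paralog, had the smallest p of the family. Its brighter probe (chr11:96162563-96162622 in mm9, plus strand, the strand of the HoxB genes) read, in WT, 10.06, 10.08, 9.92 and 9.49 in control DRGs, 8.26, 8.55, 8.94 and 8.61 at day 2, and 9.02, 8.76, 9.11 and 8.84 at day 5. In KO it read 9.86, 9.93, 10.08 and 10.15 in control DRGs, 8.66, 8.39, 8.67 and 8.27 at day 2, and 9.09, 9.06, 8.95 and 8.82 at day 5. Every lesion sample lay below every control, which held for 3 Hox genes (1.92% of all genes) and in both genotypes. *Hoxb6* fell by 1.40 ± 0.10 (SE) at day 2 (adjusted p = 5.26e-09, limma) and by 0.99 ± 0.10 at day 5 (adjusted p = 5.73e-07), to 0.379 and 0.505 of control. It was 1 of 2 Hox genes that were higher again at day 5 than at day 2, by 0.41 ± 0.10 (adjusted p = 0.0336), where 2.24% of all genes were higher and 1.04% lower, and 0 Hox genes were lower.

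The second *Hoxb6* probe gave another answer. It lies upstream of the first, at chr11:96160281-96160340 on the same strand, and was also above background in 24 samples. The first 30 bases of both 60-base probes are shown because the result for this gene depends on which of them is read:
Hoxb6 downstream probe: tcgagtctcatttcgtccatgtcccccgtg
Hoxb6 upstream probe: ggtgctatttgacaattcctgcctctgcca
The upstream probe read, in WT, 7.28, 7.40, 7.42 and 7.46 in control DRGs, 7.65, 7.59, 7.47 and 7.16 at day 2, and 7.35, 7.40, 7.002 and 7.52 at day 5. In KO the values were 7.25, 7.71, 7.16 and 7.53 in control DRGs, 7.33, 7.48, 6.94 and 7.23 at day 2, and 7.40, 7.73, 7.15 and 7.497 at day 5. Lesion and control samples overlapped throughout, and the estimates were -0.04 at day 2 and -0.02 at day 5 (adjusted p = 0.837 and 0.937). The difference between the probes was 2.54 ± 0.29 (SD, n = 8) in controls and 1.38 ± 0.38 (SD, n = 16) after lesion, a shift of -1.16 (exact permutation test over samples, two-sided, p = 5.44e-06, adjusted p = 3.26e-05 over 6 genes). These 6 were the genes with 2 detected probes, and the test was chosen after the values had been seen. The files assign the downstream probe to a RefSeq transcript of the gene and the upstream one to an Ensembl transcript.

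**Figure D3:**
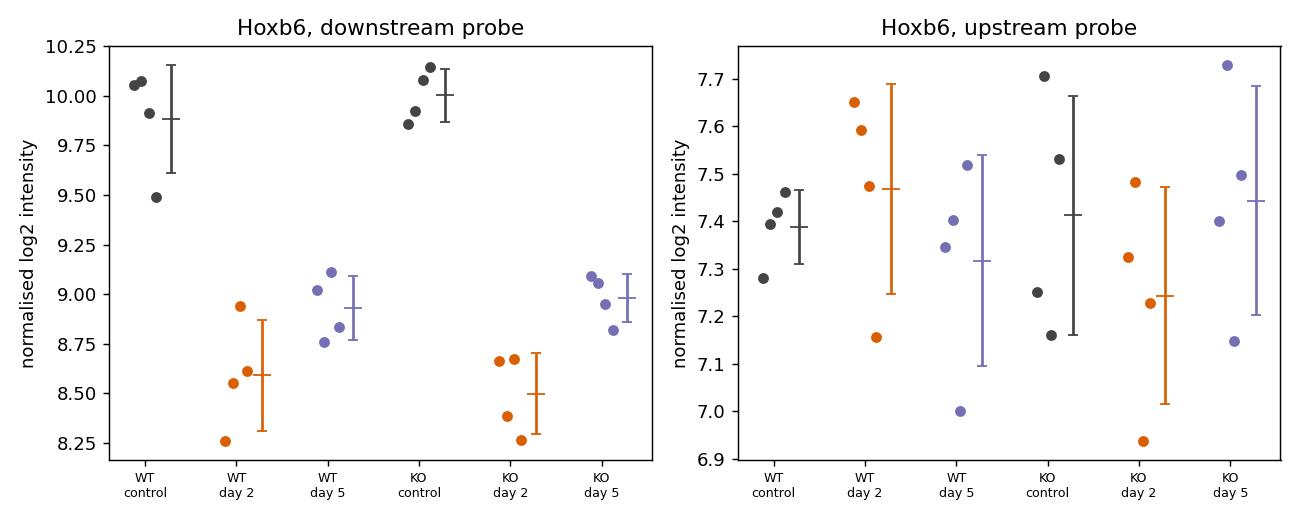
Normalised log2 intensity of the 2 *Hoxb6* probes in the 24 samples; each point is a sample, and dash and bar give the mean and SD of 4. In the left panel (downstream probe) no lesion point reaches the controls, whereas in the right panel (upstream probe) the groups overlap.

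For the other 5 genes with 2 detected probes the shift between probes was smaller, from -0.23 to 0.13, and did not pass (adjusted p from 0.227 to 0.939). *Hoxb3* fell on both of its probes. Of *Hoxb9*'s probes, both fell at day 2. *Hoxb2* is a special case, because its dimmer probe lies on the minus strand, opposite to the gene:
Hoxb2 sense probe: tggtaaaactccttccaacgaaatctcagg
Hoxb2 opposite-strand probe: gtaatgtattctatggtgaggcacctatga
The sense probe (chr11:96215122-96215181) fell, whereas the opposite-strand probe (chr11:96211860-96211919) had estimates of -0.17 and -0.21 and did not pass (adjusted p = 0.485 and 0.379). The shift between them did not pass either (-0.23, adjusted p = 0.288), so the strands were not shown to differ.

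*Hoxb5*, which lies next to *Hoxb6*, was the other HoxB gene with full separation. In WT it read 9.67, 9.72, 9.59 and 9.39 in control DRGs, 8.92, 8.95, 8.85 and 9.09 at day 2, and 8.92, 8.75, 9.08 and 8.57 at day 5. In KO it read 9.67, 9.61, 9.51 and 9.65 in control DRGs, 9.04, 9.18, 8.95 and 8.84 at day 2, and 9.05, 8.92, 8.99 and 8.79 at day 5. All 16 lesion samples lay below all 8 controls. It fell by 0.62 ± 0.08 at day 2 and by 0.72 ± 0.08 at day 5 (adjusted p = 4.74e-06 and 5.67e-07), and the 2 days did not differ detectably (adjusted p = 0.63).

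*Hoxb9*, a thoracic to lumbar paralog, passed as lower at day 2, while its smaller negative estimate at day 5 did not pass. WT samples read 9.46, 9.64, 9.59 and 9.05 in control DRGs, 8.85, 9.14, 8.90 and 8.72 at day 2, and 9.45, 9.39, 9.39 and 9.51 at day 5. KO samples read 9.44, 9.59, 9.63 and 9.63 in control DRGs, 9.04, 8.85, 8.22 and 9.03 at day 2, and 9.38, 9.35, 9.46 and 9.27 at day 5. The day 2 samples were the low ones, joined by WT control replicate 4 at 9.05, and those of day 5 lay between 9.27 and 9.51, where the other 7 controls lay between 9.44 and 9.64. The fall at day 2 was 0.66 ± 0.11 (adjusted p = 0.000135), the estimate at day 5 was -0.11 (adjusted p = 0.584), and the difference between the days, 0.56, passed (adjusted p = 0.00484). Without WT control replicate 4 the day 5 estimate was -0.17 (adjusted p = 0.286), and without the 4 controls that shared an array with a lesion sample it was also -0.17 (adjusted p = 0.457).

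*Hoxb7*, a trunk paralog, had a similar course with smaller values. The WT readings were 10.31, 10.34, 10.40 and 9.67 in control DRGs, 9.66, 9.86, 9.99 and 9.79 at day 2, and 9.99, 9.83, 10.28 and 10.13 at day 5. In KO DRGs they were 10.24, 10.28, 10.32 and 10.43 in control DRGs, 9.96, 9.75, 9.77 and 9.88 at day 2, and 10.17, 10.13, 10.16 and 10.09 at day 5. One WT control, replicate 4, lay at 9.67, among the day 2 samples. This sample had 54.54% of probes well above background, the lowest of the 24, and the highest *Atf3* and *Sprr1a* of the controls (9.98 and 11.68). *Hoxb7* fell by 0.42 ± 0.09 at day 2 (adjusted p = 0.00229), and its estimate at day 5 was -0.15 (adjusted p = 0.293), which passed once that control was left out (-0.24, adjusted p = 0.0161) and did not without the 4 controls that shared an array with a lesion sample (-0.23, adjusted p = 0.086).

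The anterior HoxB genes *Hoxb2* and *Hoxb3*, which pattern the hindbrain in the embryo, also fell. The sense probe of *Hoxb2* read, in WT, 7.91, 7.89, 7.76 and 7.66 in control DRGs, 7.21, 7.42, 7.37 and 6.92 at day 2, and 7.66, 7.64, 7.55 and 7.36 at day 5. Its KO values were 7.86, 7.85, 7.64 and 7.77 in control DRGs, 7.57, 7.06, 7.34 and 7.32 at day 2, and 7.59, 7.47, 7.39 and 7.19 at day 5. At day 2 no sample reached the controls, and at day 5 the highest WT samples came level with the lowest control. *Hoxb2* fell by 0.52 ± 0.09 and 0.31 ± 0.09 (adjusted p = 0.000182 and 0.0112). The brighter *Hoxb3* probe read, in WT, 6.95, 7.06, 7.41 and 7.30 in control DRGs, 6.90, 7.01, 6.64 and 6.65 at day 2, and 6.49, 7.08, 6.56 and 7.14 at day 5. Its KO values were 6.94, 7.68, 6.84 and 7.08 in control DRGs, 6.70, 6.32, 6.39 and 6.92 at day 2, and 6.63, 6.73, 6.61 and 6.52 at day 5. Groups overlapped on this probe, with falls of 0.47 ± 0.13 and 0.44 ± 0.13 (adjusted p = 0.0141 and 0.0189). Both days lost the call without the 4 controls that shared an array with a lesion sample (adjusted p = 0.0538 and 0.0647), as did *Hoxb2* at day 5 (adjusted p = 0.0844). The brighter *Hoxb3* probe shares a run of 22 letters with the *Hoxa9* probe, the longest run shared by probes of different Hox genes. On the dimmer *Hoxb3* probe all lesion samples lay below all controls, with falls of 0.68 ± 0.09 and 0.49 ± 0.09 (adjusted p = 1.6e-05 and 0.000415).

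*Hoxb8*, the last HoxB gene to pass, was the most scattered, with controls from 5.59 to 8.36. It fell by 1.09 ± 0.33 at day 2 (adjusted p = 0.0214), its estimate at day 5 was -0.79 (adjusted p = 0.0984), and its lesion call held in 20 of the 41 settings. These settings are the main one, 24 with 1 sample left out, and other changes of processing, model or samples. *Hoxb4* was detected in 24 samples with estimates of -0.04 and 0.15 (95% intervals -0.35 to 0.26 and -0.15 to 0.45).

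In HoxA, *Hoxa7*, a trunk paralog, was the third gene whose lesion samples all lay below the controls. Its WT values were 11.46, 11.54, 11.54 and 11.38 in control DRGs, 11.05, 11.003, 10.59 and 10.69 at day 2, and 11.26, 11.23, 11.10 and 10.88 at day 5. KO DRGs gave 11.66, 11.65, 11.39 and 11.34 in control DRGs, 10.85, 10.99, 10.88 and 10.74 at day 2, and 11.29, 11.16, 11.03 and 10.80 at day 5. It fell by 0.64 ± 0.09 at day 2 and 0.40 ± 0.09 at day 5 (adjusted p = 1.93e-05 and 0.00191). *Hoxa5*, a cervical to thoracic paralog, gave 6.68, 6.66, 6.75 and 6.84 in control DRGs, 6.02, 6.15, 6.29 and 5.88 at day 2, and 5.99, 6.36, 6.56 and 6.43 at day 5 in WT. In KO it gave 6.68, 6.53, 6.78 and 6.79 in control DRGs, 5.86, 5.97, 6.18 and 6.22 at day 2, and 6.09, 6.27, 6.37 and 6.37 at day 5. A single lesion sample, WT day 5 replicate 3 at 6.56, reached the lowest control. The falls were 0.64 ± 0.09 and 0.41 ± 0.09 (adjusted p = 1.46e-05 and 0.00126).

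*Hoxa10*, the paralog associated with lumbar identity, read, in WT, 8.42, 8.25, 7.90 and 7.97 in control DRGs, 7.43, 7.47, 7.33 and 7.41 at day 2, and 7.77, 7.64, 7.99 and 7.63 at day 5. In KO the readings were 8.47, 7.97, 8.30 and 7.99 in control DRGs, 7.48, 7.62, 8.02 and 7.60 at day 2, and 7.83, 7.57, 7.93 and 7.82 at day 5. WT day 2 samples were the lowest, and day 5 samples overlapped the lower controls. It fell by 0.61 ± 0.10 and 0.38 ± 0.10 (adjusted p = 0.000136 and 0.00708).

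*Hoxa13*, a distal limb and hindgut gene, was the 1 Hox gene that rose with this processing (2 did with processed signals or with loess normalization), by 0.47 ± 0.14 at day 2 (adjusted p = 0.0161). It was above background in 15 samples, its estimate at day 5 was 0.12 (adjusted p = 0.618), and its lesion call held in 30 of the 41 settings. Control samples lay between 4.04 and 4.77 and day 2 samples between 4.37 and 5.18, so they overlapped, and the WT controls were mostly dim, with 1 of 4 above background against 3 of 4 controls of the KO. Within genotype the day 2 estimate passed in WT (0.69, adjusted p = 0.0251) and not in KO (0.25, adjusted p = 0.474), and the interaction did not pass (adjusted p = 0.99998). A second *Hoxa13* probe, above background in 1 sample, had an estimate of -0.09 at day 2 (adjusted p = 0.918). *Hoxa9* was above background in 24 samples and did not pass (-0.24 and -0.19, adjusted p = 0.288 for the lesion test), nor did *Hoxa3*, *Hoxa4* and *Hoxa6*.

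HoxC and HoxD each had 1 gene that passed. *Hoxc6*, a trunk paralog, read, in WT, 9.19, 9.03, 9.22 and 9.31 in control DRGs, 8.42, 8.79, 8.53 and 8.62 at day 2, and 8.88, 8.90, 8.88 and 9.07 at day 5. In KO it read 9.22, 9.31, 9.34 and 9.35 in control DRGs, 8.49, 8.08, 8.41 and 8.85 at day 2, and 8.90, 8.83, 8.57 and 8.67 at day 5. Day 2 samples were the lowest, and WT day 5 replicate 4, at 9.07, was the lesion sample that reached a control. It fell by 0.72 ± 0.09 and 0.41 ± 0.09 (adjusted p = 5.48e-06 and 0.0017). *Hoxc9* and *Hoxc10* were detected in 24 samples and did not pass, with 95% intervals of -0.21 to 0.09 for *Hoxc9* at day 2 and -0.11 to 0.20 at day 5, and of -0.34 to 0.28 and -0.31 to 0.32 for *Hoxc10*.

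*Hoxd1*, known in sensory neurons for its part in nociceptive circuits, had the largest fall of the family at day 5 and, after *Hoxb6*, the second largest at day 2. In WT it read 8.50, 8.33, 8.51 and 8.15 in control DRGs, 7.18, 6.40, 6.63 and 7.53 at day 2, and 6.77, 6.67, 7.51 and 6.87 at day 5. In KO it read 8.43, 8.17, 8.58 and 8.47 in control DRGs, 6.59, 7.48, 8.17 and 6.55 at day 2, and 7.14, 7.01, 7.34 and 7.08 at day 5. One lesion sample, KO day 2 replicate 3 at 8.17, lay within the control range, and the other 15 lay below it. The falls were 1.32 ± 0.21 and 1.34 ± 0.21 (adjusted p = 8.99e-05 and 6.05e-05), to 0.399 and 0.395 of control. The probe lies at chr2:74603000-74603059 (mm9, plus strand) and begins ccacagggtaggtaaggattagaatctgaa. *Hoxd8* and *Hoxd4* were detected in 24 samples and did not pass, while *Hoxd9* passed at day 5 alone (-0.22 ± 0.08, adjusted p = 0.0493) and not in the lesion test over both days. That test called *Hoxd9* in 1 of the 41 settings. Day 5 samples overlapped controls on its brighter probe (7.46 to 7.85 against 7.74 to 8.02) and on its dimmer one (6.80 to 7.25 against 6.86 to 7.31). Of the remaining detected genes, *Hoxa2*, *Hoxa11*, *Hoxc4*, *Hoxc5* and *Hoxd10* did not pass either (adjusted p from 0.369 to 0.771 for the lesion test), and of the 9 genes that were not detected 0 passed.

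**Figure D4:**
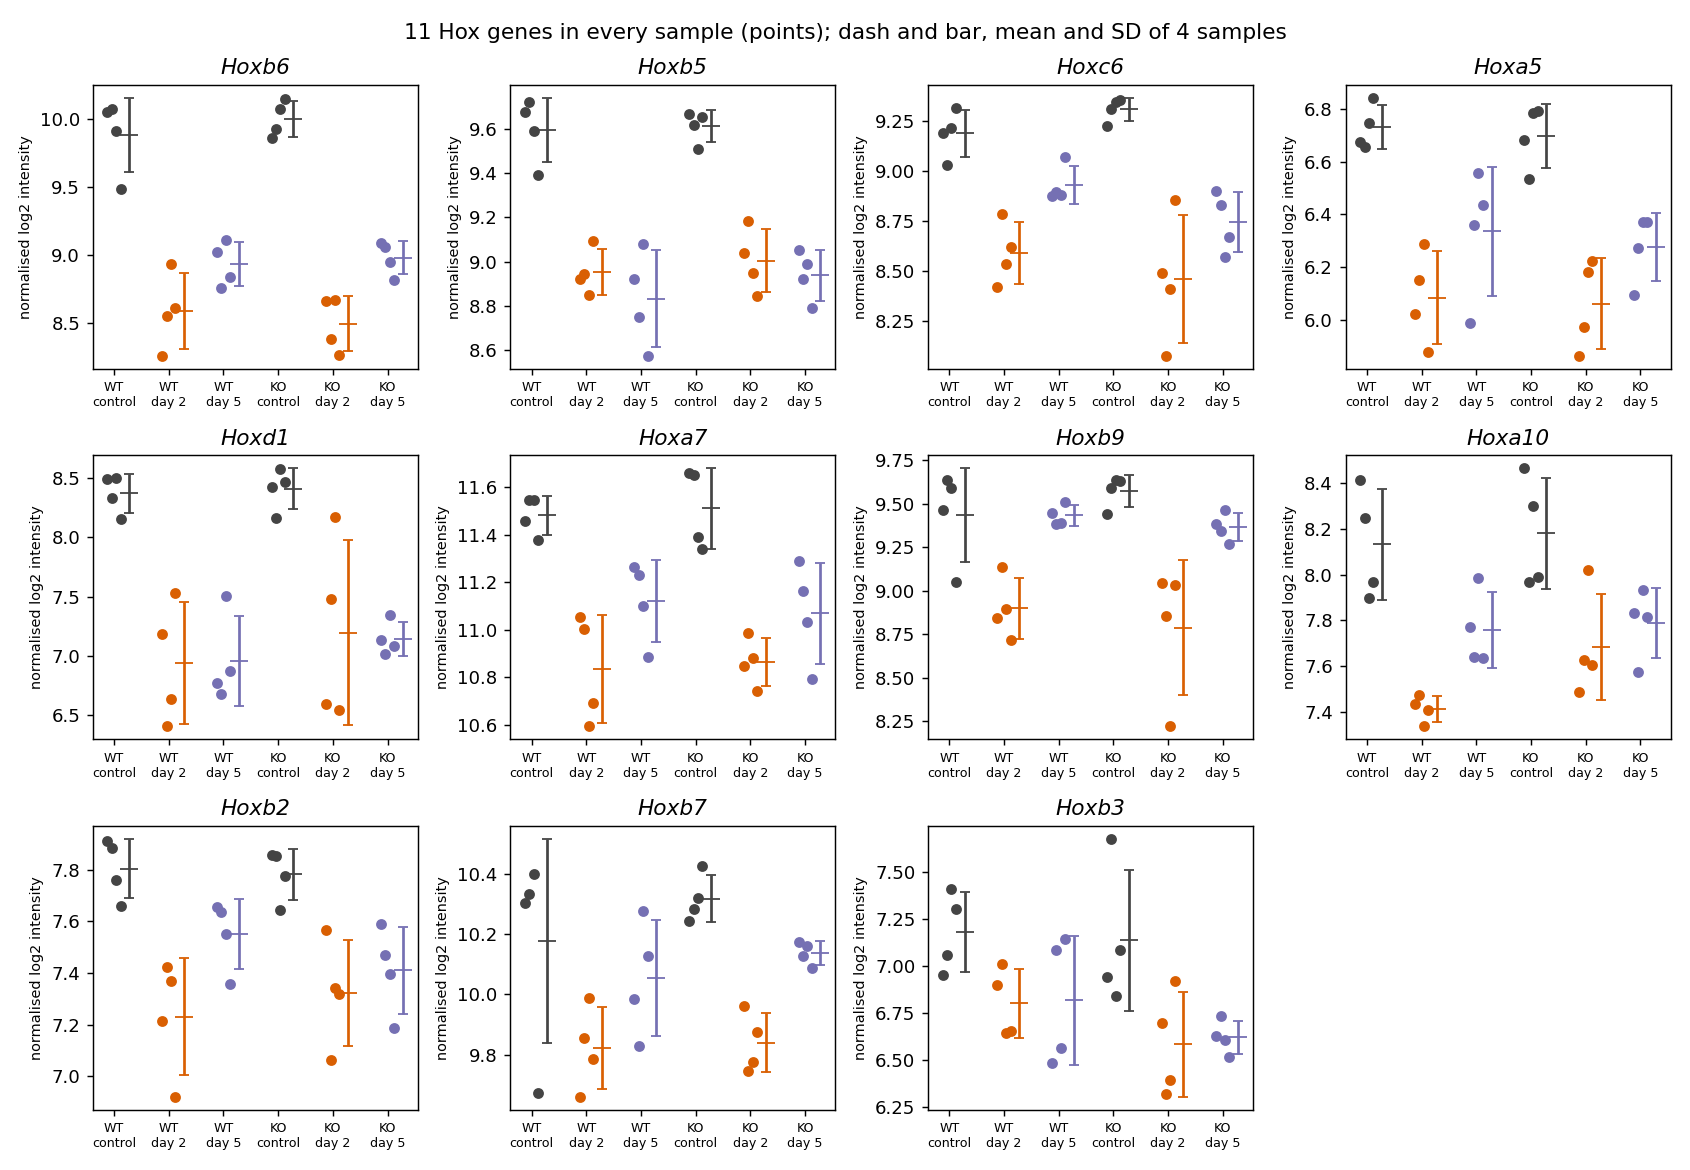
Normalised log2 intensity of 11 of the Hox genes with the smallest p in the lesion test, 1 panel per gene with its own vertical scale; points are the 24 samples, and dash and bar give the mean and SD of each group of 4. In *Hoxb6*, *Hoxb5* and *Hoxa7* no lesion point reaches a control point. In *Hoxb9* the day 5 points overlap the controls, with a lower median (9.39 against 9.59).

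The falls were seen within slides. The 12 arrays lay on 3 slides, each holding control and lesion samples, and the lesion change was computed within each. At day 2 all 11 genes described sample by sample were lower in 3 of 3 slides, with *Hoxb6* between -1.48 and -1.30. On slide 1 the day 2 value rests on 1 KO sample for every gene. Day 5 values rest on 2 KO samples on slide 2 and 2 WT samples on slide 3. The controls of slide 2 were WT control replicate 2 and KO control replicate 4, both hybridised beside a lesion sample. Its day 5 value therefore rests on KO control replicate 4 alone, the library with the conflicting label. At day 5 the same held except for *Hoxb9*, which was lower in 2 of 3. *Hoxd1* at day 2 ranged from -1.58 to -0.33, the smallest value resting on a single lesion sample.

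The lesion changes of the Hox genes were not detectably different between genotypes. By limma, 0 of 38 genes passed for KO minus WT in control DRGs, at day 2 or at day 5 (0%, 0.0146% and 0.0109% of all genes), with 0, 1 and 1 at an unadjusted p below 0.05. For the time*genotype interaction 0 genes passed, 0 had an unadjusted p below 0.05, and 0% of all genes passed. Counted within genotype, 10 Hox genes were lower at day 2 in WT and 10 in KO (5.77% and 6.27% of all genes), and 5 and 6 at day 5 (7.45% and 6.64%). The difference in lesion change between KO and WT had a 95% interval of -0.65 to 0.22 for *Hoxb6* at day 2, -0.28 to 0.35 for *Hoxb5* and -0.65 to 1.09 for *Hoxd1*, so differences of that size remain possible.

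The gene with an unadjusted p below 0.05 at day 5 was *Hoxb1*, which was lower in KO by 0.73 (unadjusted p = 0.0375). It did not pass after adjustment over all probes and was above background in no sample.

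**Figure D5:**
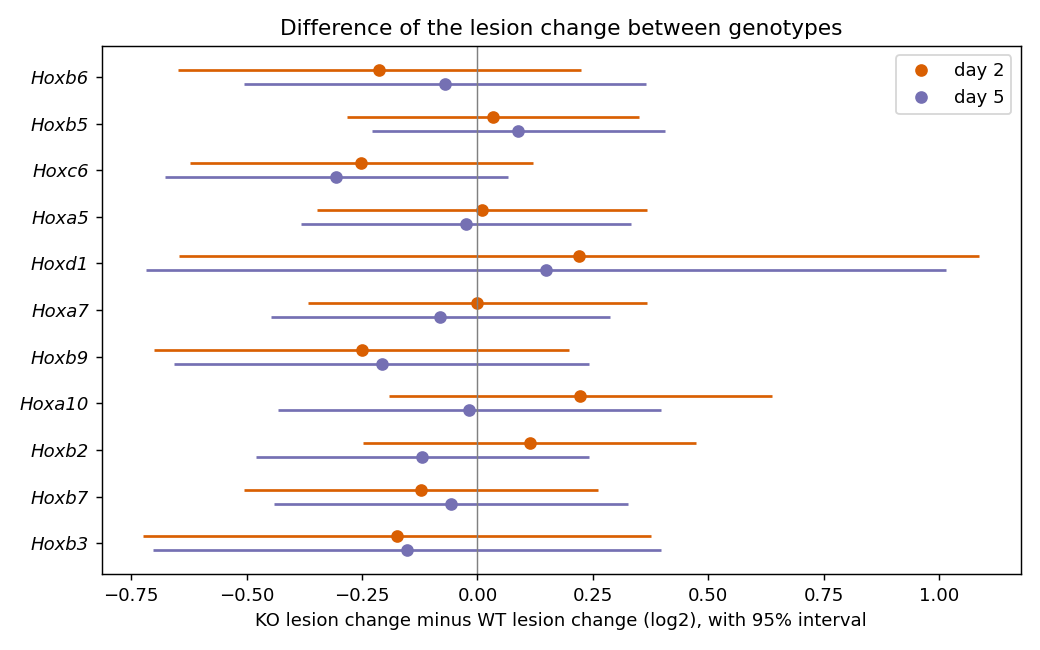
Difference of the lesion change between KO and WT (horizontal axis, log2) with its 95% interval at day 2 and day 5 for 11 Hox genes that passed the lesion test. All of the plotted intervals include 0.

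Lists of genes that act with or on the Hox genes are described by counts, to be read beside the 26.2% of all genes and 38.6% of detected genes that passed the lesion test, and by medians, beside -0.02 and -0.03 over all detected genes at day 2 and day 5. Of the 9 TALE homeodomain cofactors, which bind DNA together with HOX proteins, 3 fell and 2 rose (medians -0.09 and -0.12). *Pknox2* changed by -0.70 and -0.98, *Meis2* by -0.73 and -0.48 and *Pbx4* by -0.49 and -0.45. Of 15 Polycomb group genes, which keep silent Hox genes off, 4 fell and 2 rose (medians -0.11 and -0.03), a share near that of detected genes. *Cbx7* changed by -0.44 and -0.67 and *Jarid2* by -0.33 and -0.49, and *Ezh2*, the H3K27 methyltransferase, rose by 0.49 and 0.45. Of 10 measured trithorax group and H3K27 demethylase genes 2 rose (medians -0.03 and -0.02), *Men1* by 0.44 and 0.34 and *Kdm6b* at day 5 by 0.21. None of the 3 Cdx genes, which activate Hox genes in the embryo, was detected.

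Retinoic acid induces Hox genes in the embryo, and 4 of 14 measured genes of its metabolism and reception passed, 2 in each direction (medians -0.18 and -0.04), a share near that of all genes. *Cyp26a1*, which degrades retinoic acid, was well above background in all 16 lesioned samples but in 1 of 8 controls, so that its control level is not well measured. It rose by 1.53 ± 0.11 at day 2 and 2.70 ± 0.11 at day 5 (adjusted p = 5.45e-09 and 6.94e-13). *Cyp26b1*, a second such enzyme, fell by 1.39 ± 0.20 at day 2 (adjusted p = 4.35e-05), with an estimate of -0.20 at day 5. *Rdh10*, which catalyses the first step of retinoic acid synthesis, rose by 0.69 and 0.95, and the receptor *Rarg* changed by -0.34 and -0.33.

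Among cell type markers, the sensory neuron, satellite glia and macrophage lists held more calls than the 26.2% of all genes and 38.6% of detected genes that passed. Of 14 measured sensory neuron markers 11 fell and 1 rose, and their summed intensity ranged from 419700 to 585900 in controls, 341900 to 437300 at day 2 and 295600 to 406900 at day 5. *Tubb3* was the marker that rose (0.13 and 0.43), and *Ntrk2* and *P2rx3* did not pass. Such sums are weighted to the brightest probes, here *Nefl* and *Calca* (means 17.29 and 16.48), and do not count cells. All 7 macrophage markers rose, with sums of 1094 to 2112, 1591 to 3204 and 3820 to 5668. Of satellite glia markers 3 of 6 rose and 1 fell, and of Schwann cell, fibroblast and endothelial markers 1 of 6 rose in each list, a share below that of all genes. Of the list of spinal cord markers 1 of 6 fell, *Isl2*, which was bright (mean 12.86) and above background in 24 samples. Whether its signal came from spinal cord tissue was not tested. The other markers of this list were dim, with *Mnx1*, *Mog* and *Chat* above background in 0, 2 and 4 samples and *Olig2* and *Mobp* in 13 each. Of skeletal muscle and blood markers 0 of 5 and 0 of 3 passed, but both varied widely between samples. Muscle sums ranged from 163.6 to 2031 in controls, 168.2 to 5038 at day 2 and 183 to 11490 at day 5. Blood sums ranged from 29580 to 99140, 27080 to 218900 and 33470 to 173500. The part of these markers in the Hox changes was not tested.

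Promoter sequence was at hand for 22 of the 38 genes, as 250 bases before the RefSeq start (GRCm38.p6). Both strands were searched, and a match is a description of letters only. The NFIL3 site (TTACGTAA or TTATGTAA), present in 0.93% of 32851 promoters, and the full cAMP response element (CRE) TGACGTCA (1.55%) were in 0 of the 22. The AP-1 site TGACTCA (4.46% of promoters) was in 1, *Hoxd11*. The shorter CRE core TGACG, which the full element contains, was in 7 (17.8% of promoters), and CCAAT in 14 (33.9%). Of the 5 genes with a promoter that fell, 1 held the CRE core and 4 held CCAAT. Those of *Hoxd1*, *Hoxa5* and *Hoxa7*, which fell, and of *Hoxd8*, which did not pass, follow, 5′ to 3′, with CRE core and CCAAT matches of either strand in capitals:
Hoxd1 (chr2:74762730-74762979, plus strand): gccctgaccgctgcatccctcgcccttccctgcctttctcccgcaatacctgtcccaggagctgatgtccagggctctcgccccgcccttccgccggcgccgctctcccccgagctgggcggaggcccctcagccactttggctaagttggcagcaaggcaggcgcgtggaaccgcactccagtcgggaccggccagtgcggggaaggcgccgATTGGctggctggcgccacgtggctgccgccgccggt
Hoxa5 (chr6:52204588-52204837, minus strand): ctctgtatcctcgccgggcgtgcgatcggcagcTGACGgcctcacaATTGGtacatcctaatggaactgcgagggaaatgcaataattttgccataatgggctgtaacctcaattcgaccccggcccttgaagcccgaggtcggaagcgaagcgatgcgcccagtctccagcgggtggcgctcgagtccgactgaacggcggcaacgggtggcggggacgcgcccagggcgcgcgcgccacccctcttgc
Hoxa7 (chr6:52218574-52218823, minus strand): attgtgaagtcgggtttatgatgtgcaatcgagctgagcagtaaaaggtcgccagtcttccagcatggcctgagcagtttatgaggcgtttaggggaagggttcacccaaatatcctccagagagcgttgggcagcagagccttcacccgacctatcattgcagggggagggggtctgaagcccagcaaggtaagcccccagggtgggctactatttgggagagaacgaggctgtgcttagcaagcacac
Hoxd8 (chr2:74704365-74704614, plus strand): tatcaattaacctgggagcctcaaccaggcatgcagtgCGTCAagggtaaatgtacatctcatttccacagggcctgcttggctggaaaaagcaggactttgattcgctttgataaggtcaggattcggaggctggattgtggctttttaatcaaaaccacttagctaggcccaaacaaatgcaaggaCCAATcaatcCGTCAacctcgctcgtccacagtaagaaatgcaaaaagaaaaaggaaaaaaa
*Hoxa7* held neither motif, and *Hoxd8* held 2 CRE cores and 1 CCAAT. Hox promoters had a median of 12.5 CpG dinucleotides, against 6 over all promoters.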

How the data were processed

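RNA of 24 DRG samples was measured on 12 arrays of 3 slides, 2 samples per array, each group labelled with Cy3 in 2 samples and Cy5 in 2. As deposited by the authors, the array files are unnormalized Feature Extraction output with a foreground intensity, a background intensity and quality flags for each spot in each channel. From these, single-channel values were corrected for background (Edwards, as in the study's methods), put on a log2 scale and quantile normalized. Control spots were left out, spots flagged as outliers were removed (417 probe values missing) and spots of a probe averaged. limma 3.58.1 (R 4.3.3, statmod 1.5.0, data.table version 1.17.8) fitted 1 mean per group to all 24 samples. P-values were Benjamini-Hochberg adjusted over 41174 probes at a threshold of 0.05, and the fit was tested on simulated data. It first missed the recovery set for it, and that bar was then replaced by the power computed from the spread of the data drawn. Each gene was represented by its probe of highest mean over all samples. Lesion changes average WT and KO.

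The members, gene lists and tests were chosen with earlier results of these data known. Every sample is given for the 12 genes with the smallest lesion p among those that passed and were well above background in at least 12 samples, between genotypes the 2 genes with the smallest p are named, and from each list the genes past the threshold, at most 4, with the largest change. Some items these rules take are not reported here. Samples were grouped by title and source name. Alternatives covered background correction, normalization, foreground, outlier spots, a filter on dim probes, the choice of probe, dye, slide, array and replicate number as terms, and leaving out samples. The number of arrays limits the precision.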

Additional observations from a re-analysis of the deposited data

Results flagged for a closer look

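Over 66 sets of 4 samples (11 genes in 6 groups), 2 held a sample far from the other 3, where chance gives about 1 in 20. *Hoxc6* in WT at day 5 had replicate 4 at 9.07 with the others between 8.88 and 8.90 (gap over range 0.899). *Hoxb7* in WT controls had replicate 4 at 9.67 with the others between 10.31 and 10.40 (0.87).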

How the results depend on the processing

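The named genes kept the direction of their lesion change at both days under each of the 39 alternatives in which they were fitted. *Hoxb2* at day 5 lost its call when probes of a gene were averaged, which gave -0.34 for *Hoxb2* at day 2 and -0.72 and -0.50 for *Hoxb6*. With normexp, *Hoxa5* changed by -0.36 and -0.23 and *Hoxb3* by -0.30 and -0.28, and *Hoxa5* at day 2 by -0.40 with no background correction. With 1 sample left out at a time, 12 to 14 Hox genes passed the lesion test, 12 to 14 were lower and 1 to 2 higher at day 2, 10 to 11 lower and 0 to 1 higher at day 5, 1 to 3 differed between days, 9 to 11 passed at day 2 and 4 to 5 at day 5 in WT, and 7 to 10 and 4 to 7 in KO. Of all genes, 23.2% to 27.3% passed the lesion test in these fits. No Hox gene passed between genotypes or for the interaction in any of them. Genes higher at day 2 numbered 2 with processed signals, with loess and Aquantile normalization and with the array partner as a block, and 0 with probes averaged, which left 1 gene that differed between days. Genes higher at day 5 numbered 1 with loess and with slide as a block, which gave 8 at day 5 in WT. Without the 4 controls that shared an array with a lesion sample, an alternative chosen after seeing the data, 2 passed at day 5 in KO, against 6. The cause was not tested. Shares of all genes within a genotype were not computed for the alternatives.

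Whether replicate numbers pair the samples was not settled. Of same-number correlations 27 of 60 exceeded 0.1 (median 0.03), against 56 of 180 between other numbers (median -0.04). With replicate number as a block, 13 Hox genes passed the lesion test, beside 27.3% of all genes. Samples of the same array deviated together (12 of 12, median 0.34), and with array as a random block 14 passed, beside 25.6% of all genes. These same-array pairs have unlike replicate numbers, so they count among the other-number pairs. Detection gave 28 to 29 genes with 1 sample left out. Dim probes, and the few samples in which *Hoxd10* and *Hoxd11* were both high, limit what can be said of the posterior genes.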
